A study of Mus musculus with 6 samples.

Results

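The cathepsins are proteases of the endosome and lysosome, and 10 of their genes (*Ctsa*, *Ctsb*, *Ctsc*, *Ctsd*, *Ctse*, *Ctsh*, *Ctsk*, *Ctsl*, *Ctss* and *Ctsz*) were picked out by symbol among the 24346 gene symbols measured by RNA-Seq in mouse calvarial cells. All 10 were among the 11301 genes that reached an FPKM (fragments scaled to transcript length and library size) of at least 1 in at least 1 mouse, which was the condition for testing. *Ctsk* was then set against the other 9. With the JAK inhibitor, *Ctsk* was 5.40-fold lower and *Ctsl* 2.19-fold lower than with vehicle on the log2(FPKM + 1) scale, *Ctsz*, *Ctsd* and *Ctsc* were lower by 15.9% to 26.1% of the vehicle mean, and *Ctss*, the most abundant cathepsin, was not detectably different. None of the 10 passed an adjusted p under 0.05 in limma (0.133% of all tested genes did), whereas these 5 were lower at an unadjusted p under 0.05, as were 9.4% of all tested genes, and had groups without overlap, as did 12.1% in that direction.

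The cells came from CX3CR1-EGFP knock-in mice, in which the fractalkine receptor locus drives a green reporter that marks the monocyte lineage, and were sorted from calvarial bone marrow by EGFP alone, so the reporter rather than a panel of surface markers defined them as osteoclast precursors. All 6 mice received lipopolysaccharide (LPS) at 20 mg/kg into the periosteum over the skull. Mice were given by mouth either ABT-317, an inhibitor selective for the kinase JAK1, at 60 mg/kg in 2 doses a day for 5 days (3 mice, the JAK inhibitor group) or vehicle on the same schedule (3 mice). No mouse without LPS was analysed here, and neither the age and sex of these mice nor the number of EGFP knock-in alleles they carried is given in the sources used here.

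The labels do not say how the 3 samples of a group were collected, so p-values measure the spread between these samples. The authors deposited FPKM that summed to 688372 to 775790 in a library, and the number of reads behind them is unknown, so no counting intervals are given. The sorted cells held transcripts of the monocyte lineage together with those of granulocytes. Summed FPKM of 10 monocyte markers ran from 4231 to 6068 with vehicle and from 5552 to 6009 with JAK inhibitor. For 9 neutrophil markers it ran from 11267 to 22000.3 with vehicle and from 7469 to 15541 with JAK inhibitor. For 10 granulocyte progenitor markers it ran from 5615 to 10344 with vehicle and from 12894 to 13880 with JAK inhibitor. Vehicle-treated mouse 3 stood apart, with the highest sum for neutrophil and macrophage markers and the lowest for monocyte and granulocyte progenitor markers. The main values are therefore also given without it. These sums follow their most abundant genes (*Apoe* gave 2332 of the macrophage sum of 3045 in this mouse), and single markers went both ways. Within the vehicle group, *Apoe*, *Mertk*, *Cd68* and *Vcam1* were highest in this mouse and *Adgre1*, *C1qa*, *C1qb*, *C1qc*, *Mrc1* and *Cd163* lowest. *S100a8*, *S100a9*, *Mmp8*, *Cxcr2* and *Lcn2* were highest there, and *Retnlg*, *Camp* and *Ltf* lowest. Of the monocyte markers, *Csf1r*, *Cd14*, *Fcgr1* and *Itgam* were highest there and *Ly6c2*, *Cx3cr1*, *F13a1*, *Nr4a1* and *Ace* lowest. *Ly6c2* gave 2751 of the monocyte sum of 4231 in this mouse. Of the granulocyte progenitor markers, *Ms4a3* was highest there and *Mpo*, *Elane*, *Prtn3*, *Ctsg*, *Prss57*, *Kit*, *Cd34* and *Nkg7* lowest. In bulk RNA, fewer cells of a type and less RNA per cell cannot be told apart.

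As background, most cathepsins are cysteine proteases of the papain family (cathepsins B, C, H, K, L, S and Z), whereas cathepsins D and E are aspartic proteases and cathepsin A is a serine carboxypeptidase. They are made as inactive proenzymes, carried to the lysosome largely by mannose 6-phosphate receptors, and activated there at acid pH. Cathepsin K is the collagen-degrading protease that osteoclasts release into the resorption lacuna, and its loss leaves bone matrix undigested, whereas cathepsins S and L process the invariant chain of MHC class II molecules and cathepsins B and D serve general protein turnover.

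*Ctsk* (chromosome 3, 95499256 to 95509362, plus strand, GENCODE M21 on GRCm38) and *Ctss* (chromosome 3, 95526786 to 95556403, plus strand) are neighbors, with 17423 bases and no annotated gene between them. Their upstream sequences are shown because these adjacent genes differed in response, and that of *Ctsz* (chromosome 2, 174427493 to 174439039, minus strand) because it had the smallest p of the family. The windows are the 250 bases before the RefSeq start on GRCm38.p6, at chr3:95498960-95499209 (plus strand) for *Ctsk*, chr3:95526536-95526785 (plus strand) for *Ctss* and chr2:174439040-174439289 (minus strand) for *Ctsz*. Each is written 5′ to 3′ in the direction of transcription, with capitals marking matches on either strand to GGAAA (NFAT core), TGANTCA (AP-1), TTCNNNGAA (STAT), CACGTG (the E-box of MITF and TFE factors), GAGGAA (PU.1 core) or GGGCGG (SP1).
Ctsk: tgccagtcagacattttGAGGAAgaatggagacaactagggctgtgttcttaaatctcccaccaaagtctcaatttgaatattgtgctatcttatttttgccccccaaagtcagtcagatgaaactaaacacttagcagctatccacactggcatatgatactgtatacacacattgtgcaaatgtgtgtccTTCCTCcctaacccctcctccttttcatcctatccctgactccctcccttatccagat
Ctss: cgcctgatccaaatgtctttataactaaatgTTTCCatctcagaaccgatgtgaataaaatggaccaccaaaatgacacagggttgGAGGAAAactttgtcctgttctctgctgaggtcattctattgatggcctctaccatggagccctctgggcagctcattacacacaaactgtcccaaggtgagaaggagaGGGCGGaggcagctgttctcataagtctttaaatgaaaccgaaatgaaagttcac
Ctsz: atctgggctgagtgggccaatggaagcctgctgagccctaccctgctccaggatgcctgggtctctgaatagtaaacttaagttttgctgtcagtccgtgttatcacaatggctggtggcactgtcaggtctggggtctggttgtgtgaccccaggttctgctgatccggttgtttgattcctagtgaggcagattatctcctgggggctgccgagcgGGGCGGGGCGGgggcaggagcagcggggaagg

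The *Ctsk* window held the PU.1 core at 2 places, beginning 233 and 58 bases before the start, and none of the other 5 motifs. The *Ctss* window held the NFAT core at 2 places, 1 of which overlaps a PU.1 core, and 1 SP1 motif, and the *Ctsz* window held 2 overlapping SP1 motifs. Of the 32851 promoter windows of the same length, 23.3% held the PU.1 core, 55.6% the NFAT core, 32.7% the SP1 motif, 7.02% the STAT motif, 6.75% the AP-1 motif and 6.02% the E-box. These matches describe letters in a window and no bound factor, and the GENCODE start of *Ctsk* lies 46 bases beyond the RefSeq start. Windows were found for 7 of the 10 genes, the exceptions being *Ctsb*, *Ctse* and *Ctsh*. Among the windows not shown, that of *Ctsc* alone held the STAT motif. The NFAT core was in those of *Ctsc*, *Ctsd* and *Ctsl*, and the E-box in those of *Ctsd* and *Ctsl*. *Ctsa* had 2 windows. The NFAT core and the E-box were in that at chr2:164833523-164833772, inside the GENCODE gene, which starts at 164832873. No motif was in its other window, at chr2:164832622-164832871. The *Ctsl* window (chr13:64370521-64370770) also lay inside its GENCODE gene, and the *Ctsd* window (chr7:142387828-142388077) overlapped its own.

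*Ctsk* had an FPKM of 55.4, 37.5 and 168 in vehicle-treated mice 1 to 3 and of 7.55, 13 and 18.5 in JAK inhibitor-treated mice 1 to 3. Vehicle-treated mouse 3 was far above the others, yet even the lowest vehicle value was 2.03 times the highest JAK inhibitor value. Group means were 86.8 ± 70.5 (SD, n = 3) and 13 ± 5.46 (SD, n = 3), and the log2 fold change was -2.43 (standard error 0.49, 95% interval -3.55 to -1.31, unadjusted p = 0.000853 in limma and, over the 11301 tested genes, adjusted p = 0.109). Without vehicle-treated mouse 3, the gene was 3.52-fold lower, at a log2 fold change of -1.81 and an adjusted p of 0.0287 in limma, and without vehicle-treated mouse 2 the adjusted p was 0.0354. Over 14 alternative settings, its log2 fold change ran from -2.88 to -1.81 and its adjusted p in limma from 0.0233 to 0.300.

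**Figure D1:**
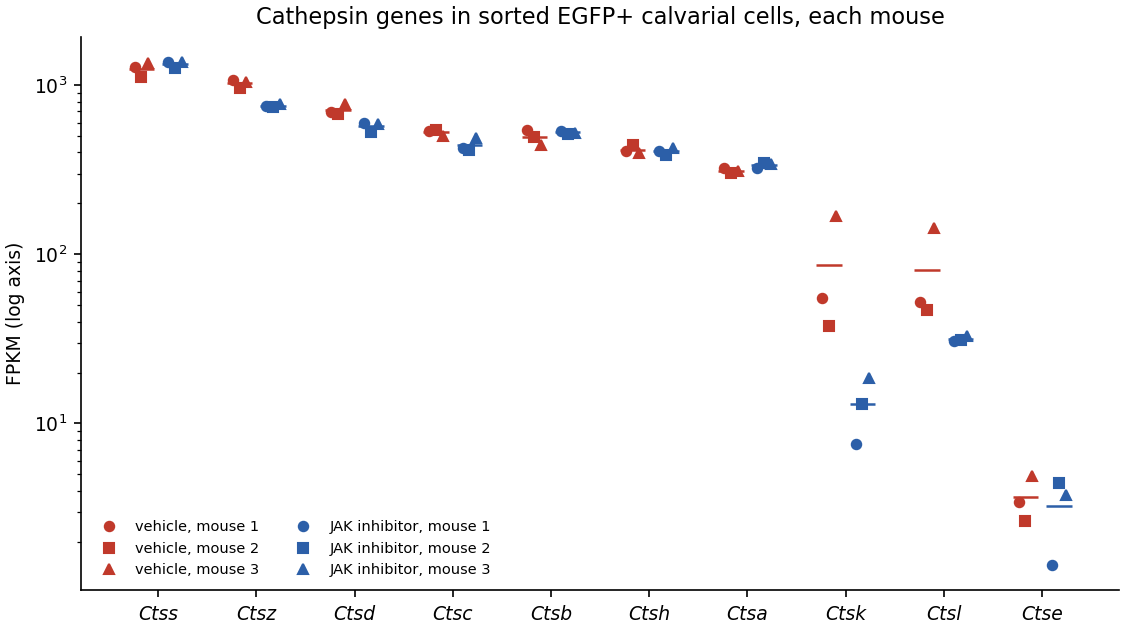
FPKM of the 10 cathepsin genes on a log axis, ordered by their vehicle mean, with 1 symbol for each mouse (red, vehicle; blue, JAK inhibitor; n = 3 each) and a horizontal line at each group mean. *Ctsk* and *Ctsl* are the genes with the widest gaps between the groups, and the triangle of vehicle-treated mouse 3 lies far above the other vehicle-treated mice for both.

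*Ctsl* (chromosome 13, 64359337 to 64370890, minus strand), an endopeptidase with a broad range of lysosomal substrates, had a similar vehicle level. Its FPKM was 52.0, 46.9 and 142 in vehicle-treated mice and 30.8, 31.3 and 32.9 in JAK inhibitor-treated mice. The 3 JAK inhibitor-treated mice were nearly equal and all lay below the vehicle group, whose highest value was again mouse 3. The log2 fold change was -1.13 (standard error 0.35, 95% interval -1.92 to -0.34, unadjusted p = 0.0103 and adjusted p = 0.177 in limma). Without vehicle-treated mouse 3 it was -0.63, or 1.54-fold lower, with an adjusted p of 0.0287 in limma. The share of the log2 fold change that was left without this mouse was 0.555 for *Ctsl* and 0.746 for *Ctsk*.

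*Ctss*, which encodes the protease that completes invariant chain breakdown in antigen-presenting cells, ranked 74th among all genes by mean FPKM. Its FPKM was 1287, 1119.7 and 1351 with vehicle and 1372, 1264 and 1361 with JAK inhibitor. The groups overlapped, and the log2 fold change was 0.093 with a 95% interval of -0.12 to 0.31 (unadjusted p = 0.358 in limma), so a fall of the size seen for *Ctsk* lay outside the interval. Of the other genes around this pair, *Arnt*, *Golph3l* and *Ensa* had log2 fold changes of -0.11, -0.17 and 0.11, none with an unadjusted p under 0.05 in limma.

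*Ctsz*, a carboxypeptidase also known as cathepsin X, had an FPKM of 1074, 959 and 1043 with vehicle and of 756, 747 and 769.6 with JAK inhibitor. The groups were well apart, and vehicle-treated mouse 3 lay between the other vehicle-treated mice. The log2 fold change was -0.44 (standard error 0.081, 95% interval -0.62 to -0.25, unadjusted p = 0.000467 and adjusted p = 0.0886 in limma). *Ctsz* had the smallest p of the 10 genes, and its FPKM difference of 268 between the means was the largest in the family, although the change was only 26.1% of the vehicle mean. With weights for each library the adjusted p was 0.0467 in limma, and over the 14 settings it ran up to 0.270.

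*Ctsc* (chromosome 7, 88278085 to 88310888, plus strand), also called dipeptidyl peptidase 1, activates the serine proteases of neutrophil and cytotoxic granules. It had an FPKM of 532, 545 and 499 with vehicle and of 423, 414 and 488 with JAK inhibitor. The groups did not overlap, but JAK inhibitor-treated mouse 3 came within 1.02 times of vehicle-treated mouse 3. The log2 fold change was -0.25 (standard error 0.092, unadjusted p = 0.0231 and adjusted p = 0.231 in limma), and it was the weakest of the 5 differences, with an unadjusted p under 0.05 in 9 of the 14 alternative settings. It lost this threshold when JAK inhibitor-treated mouse 1 or 2 or vehicle-treated mouse 1 or 2 was left out, with values of -0.22, -0.21, -0.24 and -0.23, and when the model had no trend between mean and variance.

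*Ctsb* and *Ctsh*, an endopeptidase and an aminopeptidase of general lysosomal proteolysis, overlapped between the groups. *Ctsb* had an FPKM of 542, 493 and 441 with vehicle and of 538, 517 and 522 with JAK inhibitor, and vehicle-treated mouse 3, which was highest for *Ctsk* and *Ctsl*, was the lowest of all 6 mice here. Its log2 fold change was 0.0998 (95% interval -0.11 to 0.31, unadjusted p = 0.314 in limma). *Ctsh* ran from 395 to 442 with vehicle and from 385 to 426 with JAK inhibitor, with a log2 fold change of -0.029 (95% interval -0.22 to 0.16) whose sign turned under another scaling.

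Of the aspartic proteases, *Ctsd* (chromosome 7, 142375911 to 142388038, minus strand) was high and *Ctse* low. *Ctsd* had an FPKM of 692, 679.8 and 770.2 with vehicle and of 595, 532 and 586 with JAK inhibitor. The groups did not overlap, and the log2 fold change was -0.32 (standard error 0.089, 95% interval -0.52 to -0.12, unadjusted p = 0.00569 and adjusted p = 0.152 in limma). *Ctse*, found mainly in endosomes of immune and epithelial cells, had an FPKM of 3.45, 2.65 and 4.91 with vehicle and of 1.46, 4.44 and 3.80 with JAK inhibitor, so the groups overlapped. Its log2 fold change of -0.19 had the wide 95% interval of -0.91 to 0.52 and turned to 0.16 without JAK inhibitor-treated mouse 1.

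*Ctsa*, the serine carboxypeptidase that also protects lysosomal β-galactosidase and neuraminidase, had an FPKM of 326, 304 and 309 with vehicle and of 325, 345 and 342 with JAK inhibitor. The groups overlapped, and the log2 fold change was 0.11 (95% interval -0.067 to 0.29, unadjusted p = 0.194 in limma). *Ctsa* shares 584 and 1515 bases with *Neurl2* and *Pltp* on the opposite strand, *Ctsb* shares 774 with *Fdft1*, and *Ctsz* shares 10 with *Nelfcd*. Other overlaps are with genes not among the measured symbols. On the opposite strand, *Ctsc* shares 4743 bases with *Gm26522* and *Ctsl* 1971 with *Gm47123*. On the same strand, *Ctsd* shares 6757 with *Gm49369*, *Ctsl* 395 with *Gm49230* and *Ctss* 557 with *Hmgb1-ps5*. Since the methods and the labels name different library kits, only 1 of which keeps strand, reads from the opposite-strand overlaps cannot be told apart here. For the same-strand overlaps, strand would not separate the reads with either kit.

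**Figure D2:**
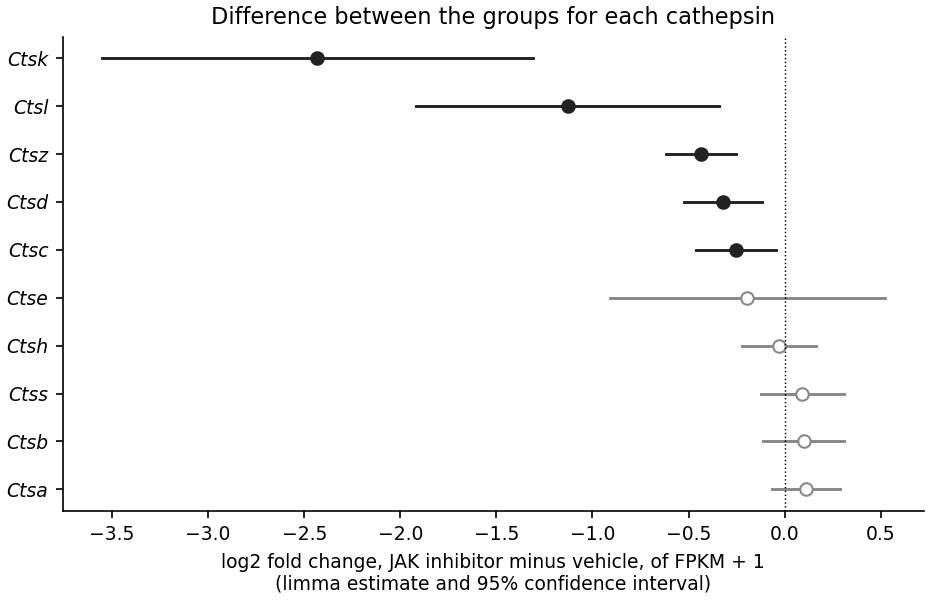
Log2 fold change of each cathepsin, JAK inhibitor minus vehicle, on log2(FPKM + 1), with the 95% confidence interval from limma (3 mice against 3). Filled points mark the 5 genes whose groups did not overlap (*Ctsk*, *Ctsl*, *Ctsz*, *Ctsd* and *Ctsc*), all lower, and the intervals of the other 5 include 0.

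Among all 10 genes, 5 passed an unadjusted p under 0.05 in limma in the lower direction and 0 in the higher direction, against 9.4% and 6.57% of the 11301 tested genes. At an adjusted p under 0.05, 0 of the 10 passed, against 0.133% of all tested genes (15 genes, a count that ran from 3 without JAK inhibitor-treated mouse 3 to 95 without vehicle-treated mouse 2). The groups did not overlap for 5 genes in the lower direction and for 0 in the higher direction, against 12.1% and 9.92% of all tested genes, and for each of the 5 p was 0.1 in an exact permutation test (2-sided), which with 3 mice in each group cannot give less. The median log2 fold change was -0.22 over the 10 cathepsins and -0.19 over the 9 without *Ctsk*, against -0.0035 over all tested genes. As each mouse was left out in turn, 4 or 5 of the 10 were lower at an unadjusted p under 0.05, and the median over the 10 ran from -0.13 without JAK inhibitor-treated mouse 1 to -0.33 without JAK inhibitor-treated mouse 3, being -0.17 without vehicle-treated mouse 3.

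The order of the levels was led in every mouse by *Ctss* and *Ctsz*. FPKM is scaled by transcript length, so levels of different genes can be set side by side. With vehicle, *Ctsd* came next, followed by *Ctsc*, *Ctsb* and *Ctsh*, whose neighboring ranges overlapped, then *Ctsa*, then *Ctsk* and *Ctsl*, whose ranges overlapped, and last *Ctse*. With JAK inhibitor, *Ctsd* and *Ctsb* overlapped, as did *Ctsc* and *Ctsh*, and *Ctsk*, now below *Ctsl* with no overlap, was the ninth of the 10. The ratio of *Ctsk* to *Ctsl* was 1.06, 0.80 and 1.18 in vehicle-treated mice and 0.245, 0.415 and 0.562 in JAK inhibitor-treated mice.

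Summed over the 10 genes, the FPKM was 4972, 4629 and 5123 with vehicle and 4458, 4253 and 4549.9 with JAK inhibitor. The means were 4908 ± 253 (SD, n = 3) and 4420.3 ± 152 (SD, n = 3), or 0.649% and 0.607% of all FPKM, and the groups did not overlap. The means differed by 487, and the largest differences of single genes with lower means were 268 for *Ctsz*, 143 for *Ctsd*, 83.4 for *Ctsc* and 73.8 for *Ctsk*. *Ctsk* was 1.11%, 0.811% and 3.27% of the sum in vehicle-treated mice and 0.169%, 0.306% and 0.406% in JAK inhibitor-treated mice. The share of *Ctss* averaged 25.5% ± 1.15 (SD, n = 3) in the vehicle group, below its 30.1% ± 0.56 (SD, n = 3) in the other group, while its own FPKM overlapped between the groups. The most abundant proteases of the family thus carried nearly the whole sum in both groups, and the gene with the largest fold change was a small part of it.

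*Ctsk* was then set against the other 9 within each mouse. On the log2(FPKM + 1) scale, *Ctsk* minus the mean of the other 9 was -2.28, -2.73 and -0.87 in vehicle-treated mice and -4.72, -4.09 and -3.68 in JAK inhibitor-treated mice. The groups did not overlap, and their means differed by -2.20. This difference is a description without a p, and it ran from -2.59 to -1.66 over the other pseudocount, filters and scalings and each mouse left out. Against each cathepsin singly, the difference between the groups was -1.30 for *Ctsl*, -2.00 for *Ctsz*, -2.11 for *Ctsd*, -2.18 for *Ctsc*, -2.24 for *Ctse*, -2.40 for *Ctsh* and from -2.54 to -2.52 for *Ctsa*, *Ctsb* and *Ctss*. All 9 comparisons had groups without overlap, with p = 0.1 in the exact 2-sided permutation test, also after adjustment over the 9 pairs, and 0.1 is the smallest p possible. The pairs share the *Ctsk* values and are not independent of each other.

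**Figure D3:**
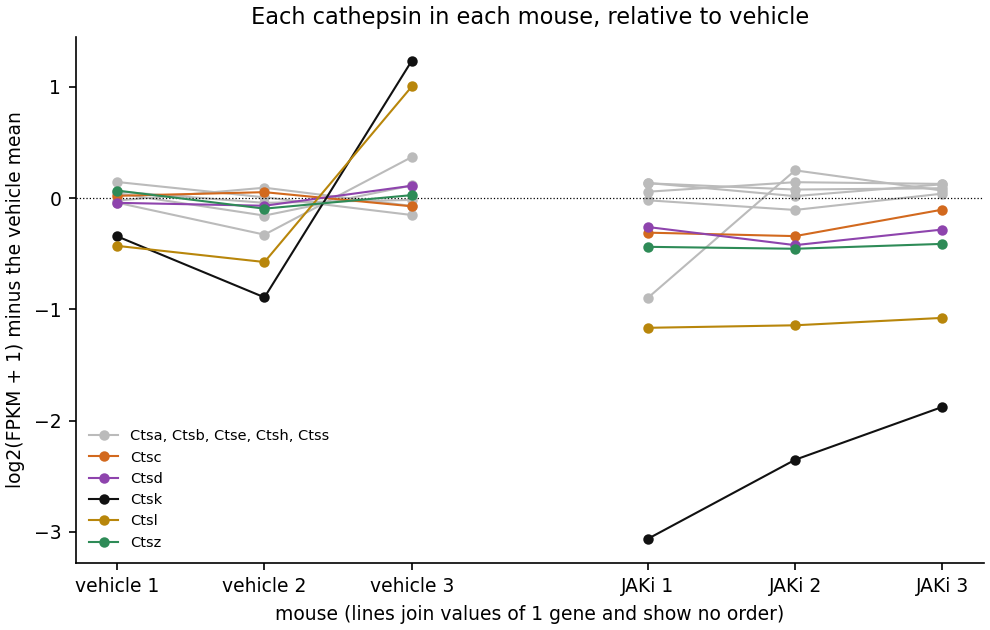
Log2(FPKM + 1) of each cathepsin in each mouse (JAKi, JAK inhibitor) after subtracting the vehicle mean of that gene, so that 0 is the vehicle mean, with lines joining the values of 1 gene. *Ctsk* and *Ctsl* are raised in vehicle-treated mouse 3 and low in all 3 JAK inhibitor-treated mice, *Ctsz*, *Ctsd* and *Ctsc* lie below 0 in each JAK inhibitor-treated mouse, and the 5 genes in gray stay near 0 except for *Ctse*.

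The genes whose values over the 6 mice were most like those of *Ctsk* were sought among 10480 genes with a mean FPKM of at least 1, by the root-mean-square difference between log2(FPKM + 1) values centred on each gene's mean. They were *Mmp14* (0.268), *Crispld2* (0.366), *Atp6v0d2* (0.416), *Cd38* (0.428) and *Scrg1* (0.503). *Mmp14* encodes a membrane-anchored matrix metalloproteinase and had an FPKM of 36.1, 27.5 and 101 with vehicle and of 7.34, 7.0 and 10.3 with JAK inhibitor. *Cd38*, an NAD-consuming ectoenzyme of leukocytes, had 45.8, 24.5 and 117 with vehicle and 11.1, 8.84 and 9.76 with JAK inhibitor. Vehicle-treated mouse 3 was the highest mouse for all 5 genes, as it was for *Ctsk*. Over the 5 mice without it, *Mmp14* ranked 2nd, *Crispld2* 6th, *Atp6v0d2* 8th, *Cd38* 16th and *Scrg1* 30th by the same measure. Of the cathepsins, *Ctsl* was nearest to *Ctsk*, at rank 46 with a difference of 0.744, and the other 8 ranked between 784 and 7342. With vehicle-treated mouse 3 left out, *Ctsl* was still the nearest, at rank 156, followed by *Ctsz* at 468 and *Ctsc* at 846. Likeness was measured over values that include the group difference, and these ranks are a description.

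A further 12 mouse cathepsin genes were listed in the files, of which 4 could be tested. *Ctso*, a cysteine protease of low level, had an FPKM of 11.9, 14.0 and 11.5 with vehicle and of 10.4, 9.22 and 9.16 with JAK inhibitor, with no overlap and a log2 fold change of -0.34 (unadjusted p = 0.0307 and adjusted p = 0.261 in limma), a call lost when JAK inhibitor-treated mouse 2 or 3 was left out. *Ctsg*, the granule serine protease cathepsin G of granulocyte progenitors, ran from 1106 to 1228 with vehicle and from 1082 to 1161 with JAK inhibitor, with a log2 fold change of -0.049. *Ctsf* and *Ctsw* had log2 fold changes of -0.081 and -0.21, both with overlapping groups. Of the placental cathepsins, 7 were listed at 0 in every mouse and *Cts8* was at 0.011 or below.

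Genes for cathepsin inhibitors had a median log2 fold change of -0.99 over the 10 tested, of which 6 were lower and 1 higher at an unadjusted p under 0.05 in limma and 0 passed the adjusted threshold. Over all tested genes, 9.4% were lower and 6.57% higher at that unadjusted p. The stefin genes *BC100530*, *Stfa1*, *Stfa2* and *Stfa2l1* were among the 6. In contrast, the FPKM summed over the list, mostly *Cst3*, was higher with the JAK inhibitor, at 3196 to 3804 with vehicle and 3865 to 4630 with JAK inhibitor. *Cst3* encodes cystatin C, the main secreted inhibitor of cysteine cathepsins, and was higher with the JAK inhibitor, at an FPKM of 2795, 2508 and 1802 with vehicle and of 3724, 3130.3 and 3422 with JAK inhibitor. Its log2 fold change was 0.55 (unadjusted p = 0.00671 in limma), and the groups did not overlap. *Cstb*, which encodes the intracellular inhibitor cystatin B, was lower, at an FPKM of 502, 463 and 872 with vehicle and of 398, 301 and 364 with JAK inhibitor (log2 fold change -0.74, unadjusted p = 0.00875 in limma). The serpin gene *Serpina3g* had a log2 fold change of -1.65, with an adjusted p of 0.0557 in limma and, without vehicle-treated mouse 3, of 0.0164. The stefin genes *BC100530* and *Stfa1* had log2 fold changes of -1.69 and -1.27 at an unadjusted p under 0.05 in limma, with overlapping groups. They belong to a cluster of near-identical copies, along with *Stfa2* and *Stfa2l1*, so reads may have been split among them and these values are uncertain. Without vehicle-treated mouse 3, 4 of the 10 inhibitor genes remained lower at an unadjusted p under 0.05, and *Stfa2* and *Stfa2l1* were no longer among them. Without JAK inhibitor-treated mouse 2, 3 were lower and the median was -0.63, and without JAK inhibitor-treated mouse 3, 4 were lower.

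The genes of cathepsin sorting and activation had a median of -0.019 over 16 tested genes, with 2 lower and 1 higher at an unadjusted p under 0.05 in limma and 0 past the adjusted threshold. The median ran from -0.026 to 0.035 as each mouse was left out, and 0 genes were lower without JAK inhibitor-treated mouse 1 or 2 or vehicle-treated mouse 3 and 1 without JAK inhibitor-treated mouse 3. *Lgmn* encodes legumain, an asparaginyl endopeptidase that cleaves several procathepsins, and had an FPKM of 62.1, 66.0 and 90.0 with vehicle and of 59.0, 52.7 and 57.6 with JAK inhibitor (log2 fold change -0.34, unadjusted p = 0.0380 in limma). *Neu1*, whose neuraminidase is held in a complex with cathepsin A, had a log2 fold change of -0.33. Neither *Lgmn* nor *Neu1* passed without vehicle-treated mouse 3, where unadjusted p was 0.0953 and 0.0756 in limma. *Psap*, the precursor of the saposins and a substrate of cathepsin D, had a log2 fold change of 0.51 (unadjusted p = 0.00665 in limma), and its groups did not overlap.

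Among genes that act with or on the products of cathepsins, 5 of 8 for the invariant chain and MHC class II pathway were lower at an unadjusted p under 0.05 in limma (median -0.59), and 3 without JAK inhibitor-treated mouse 2. *Cd74*, the invariant chain cut by cathepsins S and L, had an FPKM of 538, 601 and 327 with vehicle and of 374, 245 and 256 with JAK inhibitor, so its groups overlapped, with a log2 fold change of -0.72. *H2-Aa*, *H2-Ab1* and *H2-Eb1*, which encode class II chains, had log2 fold changes of -0.80, -0.76 and -0.94, and *Ifi30*, a thiol reductase of the same compartment, had -0.45. Of the rest of this list, *H2-DMa* was higher without overlap, at 0.41 (unadjusted p = 0.102 in limma) and at 0.097 without vehicle-treated mouse 3. *H2-DMb1* and *Ciita* overlapped between the groups, at 0.028 and -0.21. Of the 6 genes for granule proteases that cathepsin C activates, *Gzmb* and *Gzma* were lower (-2.22 and -2.09) and *Elane* and *Prtn3* were higher (1.12 and 0.47) at an unadjusted p under 0.05 in limma. Leaving out JAK inhibitor-treated mouse 1 left 1 of these granule genes higher, leaving out mouse 2 of that group left 1 lower, and leaving out its mouse 3 left 1 in each direction. For both sets, 0 genes passed the adjusted threshold with all 6 mice. Over all tested genes, 9.4% were lower and 6.57% higher at an unadjusted p under 0.05 in limma. Without vehicle-treated mouse 3, *Gzma* lost its unadjusted threshold (p = 0.0820 in limma over all genes, not an exact test), whereas adjusted p in limma was 0.0278 for *H2-Aa* and *H2-Eb1*, 0.0279 for *H2-Ab1*, 0.0287 for *Cd74* and 0.0101 for *Elane*.

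Of 14 tested genes of osteoclast resorption, 6 were lower and 1 higher at an unadjusted p under 0.05 in limma, 0 passed the adjusted threshold, and the median was -0.38. Over all tested genes, 9.4% were lower and 6.57% higher at that unadjusted p. *Acp5*, which encodes the tartrate-resistant acid phosphatase cleaved by cathepsin K, had an FPKM of 194, 121 and 383 with vehicle and of 103, 92.5 and 90.7 with JAK inhibitor (log2 fold change -1.12, unadjusted p = 0.00838 in limma). *Clcn7*, the lysosomal chloride antiporter, had a log2 fold change of -0.35, whereas *Itgb3*, the integrin β3 chain, had 0.90. The fusion genes *Dcstamp* and *Ocstamp* and the proton pump gene *Atp6v0d2* had -1.19, -1.73 and -1.75. Without vehicle-treated mouse 3, 5 genes were lower and 2 higher, and the median was -0.25. *Mmp9* then lost its unadjusted threshold and *Car2* reached it (p = 0.0874 and 0.0469 in limma over all genes, not exact tests), while the log2 fold changes were -0.68 for *Acp5*, -1.003 for *Dcstamp*, -1.21 for *Ocstamp* and -1.20 for *Atp6v0d2*. *Nfatc1* and *Mitf*, which encode transcription factors known to act on *Ctsk*, had log2 fold changes of -0.044 and 0.11 with unadjusted p of 0.742 and 0.646 in limma.

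**Figure D4:**
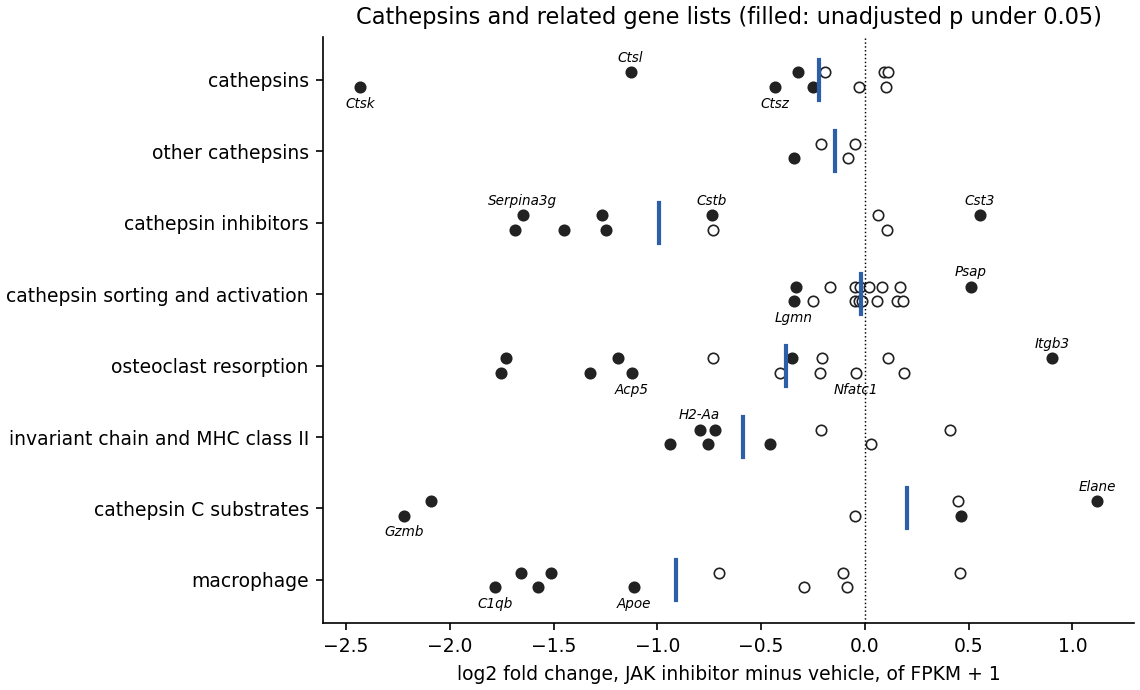
Log2 fold changes (JAK inhibitor minus vehicle, log2(FPKM + 1)) of the tested genes of 8 lists, with 1 point for each gene, filled where the unadjusted p in limma was under 0.05, and a blue bar at the median of the list. Points are moved up or down slightly for legibility. The inhibitor and macrophage lists have the lowest medians (-0.99 and -0.91), whereas the median of sorting and activation genes lies at -0.019. A median counts each gene equally, and the summed FPKM of the inhibitor list was higher with the JAK inhibitor.

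Markers of other cells differed between the groups in both directions. Over all tested genes, 9.4% were lower and 6.57% higher at an unadjusted p under 0.05 in limma. At that threshold, 3 of 10 monocyte markers were lower and 2 higher. Of 9 neutrophil markers, 3 (*Lcn2*, *Mmp8* and *Cxcr2*) were lower and 1 (*Camp*) higher (3 higher without JAK inhibitor-treated mouse 2). Of 10 macrophage markers, 5 (*Apoe*, *C1qa*, *C1qb*, *C1qc* and *Mertk*) were lower at an unadjusted p under 0.05 in limma, the median was -0.91, and the summed FPKM was 2307 to 3045 with vehicle and 1278 to 1540.0 with JAK inhibitor. Within this list, *Cd68* and *Adgre1* had log2 fold changes of -0.084 and -0.10. *C1qa*, a defining macrophage gene, had an FPKM of 57.2, 54.5 and 22.5 with vehicle and of 22.7, 9.23 and 9.0 with JAK inhibitor, so the vehicle-treated mouse with the highest *Ctsk* had the lowest *C1qa* of its group, as it did for *C1qb* and *C1qc*. In contrast, *Apoe* (1658, 1479 and 2332 with vehicle) and *Mertk* (2.73, 2.09 and 10.2) were highest in that mouse, as was the sum of the list, most of which was *Apoe*. Of 10 granulocyte progenitor markers, 5 were higher and 1 lower (3 higher without JAK inhibitor-treated mouse 3), and of 6 tested erythroid markers, 3 were higher, with sums of 2.95 to 39.8 with vehicle and of 65.3 to 137 with JAK inhibitor. Without vehicle-treated mouse 3, 7 macrophage markers were lower and 1 higher at an unadjusted p under 0.05 in limma, and the median was -0.96. The part of these shifts in the cathepsin differences was not tested. Markers of stromal cells and osteoblasts, fibroblast-like cells among which can express *Ctsk*, were near 0: *Dcn*, *Lum* and *Pdgfra* were listed at 0 in all 6 mice, *Col1a1* was at 0.184 or below, and the summed FPKM of the 10 markers, nearly all of it *Runx2*, was 3.56 to 7.05 with vehicle and 6.08 to 6.52 with JAK inhibitor.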

How the data were processed

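RNA-Seq values of EGFP+ cells from 3 JAK inhibitor-treated and 3 vehicle-treated mice were analyzed. The authors deposited FPKM in 6 tables of 24346 gene symbols each, and 8100 symbols are at 0 throughout. The submitters' processing notes name TopHat2 2.0.13, Bowtie2 2.2.3, SAMtools 0.1.19, Cufflinks 2.2.1 and mm10, and the annotation is not given in the sources used here. The methods name a stranded TruSeq kit, the labels a SMART-Seq HT kit with Nextera libraries. Doses are those of the methods.

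Log2(FPKM + 1) of genes reaching 1 FPKM in any mouse was compared with limma 3.58.1 in R 4.3.3 (trended empirical Bayes, no replicate block, p adjusted over all tested genes by Benjamini-Hochberg), after a check on simulated data. Fold changes on this scale understate the change of low genes. Genes named were every cathepsin, up to 5 genes of each list with the smallest unadjusted p under 0.05, genes with a stated link to a cathepsin (*Cst3*, *Cstb*, *Lgmn*, *Cd74*, *Nfatc1*, *Mitf*, *Acp5*) and the 5 genes most like *Ctsk*; the neighbors of *Ctsk* and overlapping genes were named by position. Cell type markers, *Stfa2*, *Stfa2l1*, *Mmp9*, *Car2*, *H2-DMa*, *H2-DMb1* and *Ciita* were named after their values were seen. The cathepsins and all lists were chosen with earlier results of these data known. Lists were described by counts and medians without a set test. Positions are from GENCODE M21, promoters from RefSeq. Other steps used SciPy 1.17.1, NumPy 2.4.6, pandas 2.3.3 and matplotlib 3.10.9 under Python 3.11.15. *Csta2*, *Csta3*, *Ly6g*, *Trac* and *Hbb-bt* were not analysed here.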

Additional observations from a re-analysis of the deposited data

How the results depend on the processing

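The direction of *Ctsk*, *Ctsl*, *Ctsz*, *Ctsd* and *Ctsc* held in all 14 alternatives (a pseudocount of 0.1, no filter or an FPKM of at least 1 in 3 mice, quantile or median-ratio scaling, no trend, library weights, the replicate block, and each mouse left out), and 4 or 5 cathepsins passed an unadjusted p under 0.05 in limma in each. The number of all genes past an adjusted p under 0.05 in limma was 15 and became 2 without the filter, 34 with an FPKM of at least 1 in 3 mice, 2 without the trend and 63 with library weights, and it ran from 3 to 95 as single mice were left out. Correlations of deviations were 0.016, 0.054 and -0.00016 between mice of equal replicate number and ran from -0.038 to 0.019 between unequal numbers. The deviations of a group sum to 0 for each gene, so these correlations cannot settle whether equal numbers mark pairs. With the replicate number as a block the count was 67, and *Ctsk* had an adjusted p of 0.0233, while 5 cathepsins passed the unadjusted threshold. Without *Ctss* in the sum, *Ctsk* was 0.420% of it with JAK inhibitor. The sign turned for *Ctse* (-0.42 to 0.16 as single mice were left out, the highest without JAK inhibitor-treated mouse 1) and for *Ctsh* (0.020 with quantile scaling, and -0.064 to 0.018 as single mice were left out, being 0.010 when mouse 2 of the JAK inhibitor group was missing and 0.018 when mouse 2 of the vehicle group was). Values without vehicle-treated mouse 3 for related lists and for likeness to *Ctsk* were added after seeing the data. The cause of these changes was not tested, and read depth, and so counting error, is unknown.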
